A study of Mus musculus with 18 samples.

Results

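The comparison concerned the libraries labelled KO#2 against the libraries labelled KO#1 at 24 h of induction into EpiLCs, 6 of the 18 libraries of the series and 3 on each side, chosen by their sample titles. Both lines are mouse induced pluripotent stem cells (iPSCs) labelled as knockouts of the Hmga2 gene, and each is 1 clone. At 0 h the iPSCs grew on inactivated fibroblast feeders with leukaemia inhibitory factor and the kinase inhibitors PD0325901 and CHIR-99021. For the 24 h libraries the cells had been replated on a basement membrane matrix and cultured with Activin A and bFGF added to the medium. The 3 libraries of a group are independent biological replicates of that clone. Libraries of wt cells, which also came from 1 clone, and the 0 h libraries of both KO clones served as reference points. With 1 clone on each side, a difference between the clones cannot be told apart from a difference in passage, handling or library preparation that accompanied the clone. The labels do not say which part of the gene was removed, and the counts cover all exons of a gene.

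Naive pluripotent cells in the presence of LIF and kinase inhibitors resemble the epiblast before implantation. When they receive Activin A and bFGF they lose naive factors, gain formative factors such as Fgf5, Otx2 and the de novo DNA methyltransferases, and become epiblast-like cells, or EpiLCs. Hmga2 is a small chromatin protein that binds AT-rich DNA through AT-hooks and is switched on as the naive state is left. Hmga2 RNA is a target of let-7 microRNAs, whose maturation is blocked by Lin28 proteins.

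The clones differed widely. Of 16619 genes tested, 5878 differed between KO#2 and KO#1 at 24 h (35.4%), 3204 of them higher in KO#2 (19.3%) and 2674 lower (16.1%). Among these genes the absolute log2 fold change had a median of 1.42, and 4469 had a size of at least 1. Over all tested genes the median log2 fold change was 0.14. Pearson correlations of log2 CPM between libraries of the same clone ranged from 0.959 to 0.979 over 6 pairs, and those between clones from 0.888 to 0.923 over 9 pairs. CPM are counts per 1e6 of the effective library size, in which a TMM factor scales the total for RNA composition. In 7859 genes (47.3%) the 3 values of one clone did not overlap with the 3 of the other. The wt mean at 24 h was nearer KO#1 than KO#2 for 78.6% of the genes that differed, and the share over all tested genes was not computed. In TMM factor, too, wt libraries at 24 h (0.507 to 0.801) lay with KO#1 (0.525 to 0.838) and not with KO#2 (1.31 to 1.45). The part of composition in the 78.6% was not tested. Counts for gene lists are over the members that could be tested, which were fewer than those listed for the respiratory chain (91 of 93), the Zfp900 series (30 of 31), imprinted genes (27 of 29), antigen presentation (15 of 18), Nodal and Wnt pathways (13 of 14 each), PRC2, two-cell and immediate early genes (11 of 12 each), trophoblast and neural markers (7 of 8 each), sex-linked genes (5 of 6), Hox genes (16 of 39) and primitive streak markers (2 of 10).

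The libraries of the clones also differed in composition. Total counts were between 13448569 and 22308889 in the 6 libraries. Small structural RNA genes took 27.7% to 47.0% of the counts in KO#1 and 6.56% to 11.4% in KO#2, whereas protein-coding genes took 41.3% to 63.1% and 82.3% to 84.7%. The 10 most counted genes held 34.2% to 53.3% of a KO#1 library and 13.2% to 14.7% of a KO#2 library. TMM factors were accordingly 0.525 to 0.838 in KO#1 and 1.31 to 1.45 in KO#2. In wt libraries at 24 h the structural RNA share was 28.5% to 46.2%. The part of this composition in the differences was not tested. Without TMM factors, by library sizes alone, 9986 genes differed and 9533 of them were higher in KO#2, with a median log2 fold change of 1.21 over all tested genes.

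Hmga2 itself was read at 3.67, 2.25 and 0.871 CPM in the 3 KO#1 libraries and at 10.5, 3.02 and 3.48 CPM in the 3 KO#2 libraries. The groups overlapped, and the difference did not pass the test (log2 fold change 1.32, SE 0.64, adjusted p = 0.115). Hmga2 passed it, toward higher levels in KO#2, without the filter on low counts (1.34, adjusted p = 0.00468) and by library sizes alone (2.496, adjusted p = 0.00162), where the means were 1.38 CPM in KO#1, 7.94 CPM in KO#2 and 3.91 CPM in wt cells. In wt cells at 24 h the values were 5.87, 5.51 and 5.93 CPM, so the first KO#2 library lay above all wt libraries. Since the removed part of the gene is not stated, the level over all exons is no check of the knockout, and KO#1 and KO#2 are used throughout as the labels of the libraries. For the protein, the paper presents a western blot of Hmga2 in wt cells and in cells labelled KO#1 and KO#2, and cites it for the suppression of Hmga2. Hmga1, the paralogue with the same AT-hook design, was lower in KO#2, with 139, 185 and 221 CPM in KO#1 and 127, 45.8 and 79.5 CPM in KO#2 (log2 fold change -1.11, SE 0.37, adjusted p = 0.0248). Its groups did not overlap, yet the adjusted p was 0.0507 without KO#1 replicate 2, 0.0736 without KO#1 replicate 3, 0.112 without KO#2 replicate 2 and 0.0663 without KO#2 replicate 3, and 0.0594 with offsets for exon length, which are described with RNA length. Both clones lay under the wt values of 699, 772 and 962 CPM. Lin28b, which blocks let-7 maturation, was higher in KO#2 at 12.5, 11.7 and 22.8 CPM against 4.7, 6.03 and 4.73 CPM (log2 fold change 1.61, SE 0.35, adjusted p = 0.00211).

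**Figure D1:**
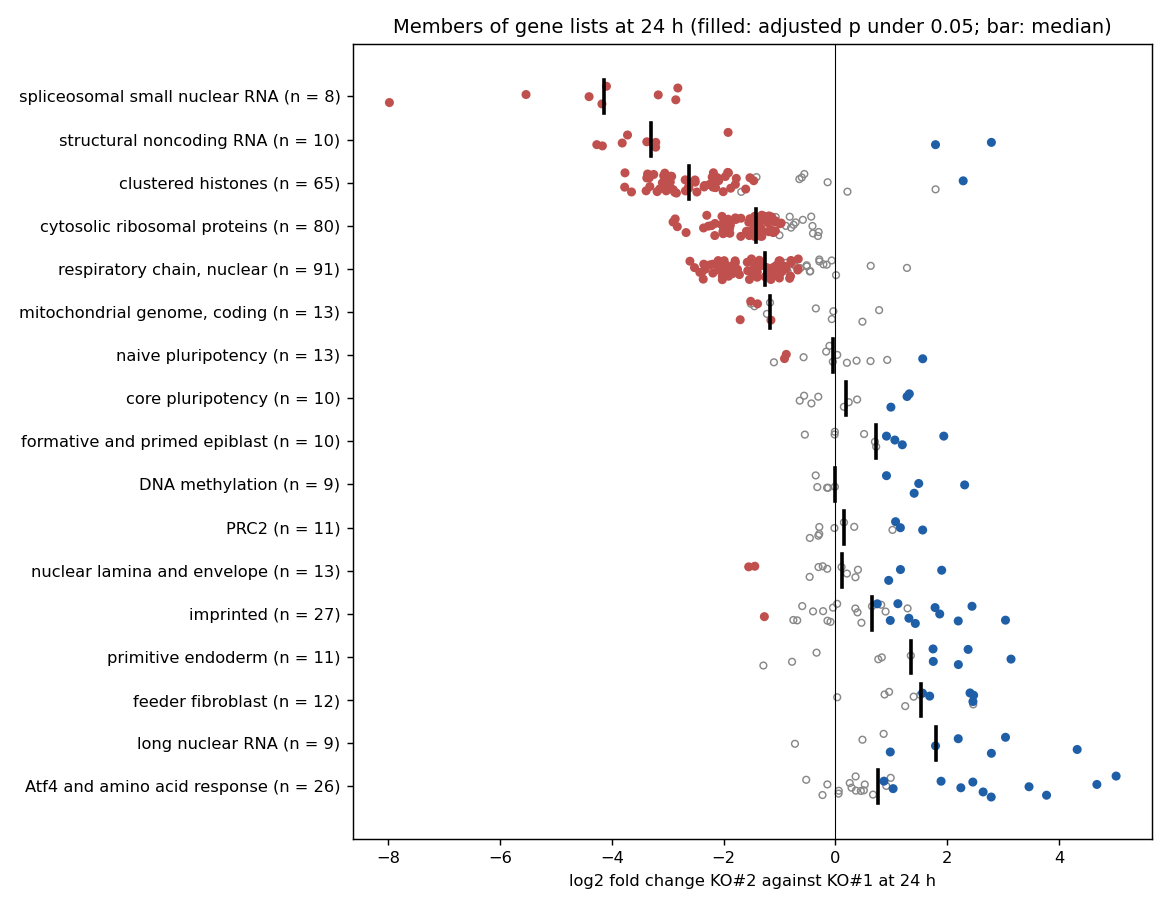
Log2 fold change of KO#2 against KO#1 at 24 h for each tested member of 17 gene lists, one row per list. Filled points passed the test at an adjusted p under 0.05, open points did not, and vertical bars are list medians, which run from -4.14 for spliceosomal small nuclear RNAs to 1.79 for long nuclear RNAs.

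Short noncoding RNAs were among the genes with the largest differences, all toward lower levels in KO#2 in the spliceosomal group. Of 11 spliceosomal small nuclear RNAs in a list added after seeing the data 8 were tested, and all 8 were lower, beside 16.1% lower among all genes, with a median log2 fold change of -4.14. With the list chosen in the knowledge of these values, the count is no test. With the exon length offsets 7 were lower and the median was -2.41. Rnu1a1, a copy of the U1 RNA that pairs with the 5′ splice site, was read at 1008, 1065 and 326 CPM in KO#1 and at 0, 9.29 and 0 CPM in KO#2 (log2 fold change -7.98, SE 1.79, adjusted p = 0.00252). Gm22634, a further copy, was read at 952, 1084 and 327 CPM and 0, 12.8 and 0 CPM (log2 fold change -7.51, SE 1.77, adjusted p = 0.00351). In both copies 2 of the 3 KO#2 libraries held no count and the second held all of them, so the size of the fold is loosely set. The annotated transcripts of Rnu1a1, Gm22634 and Gm26444 are identical over 164 bases, so that a read from one fits all and the division of counts among them rests on the counting. The shared sequence, in the sense strand of GENCODE M21 on GRCm38, is shown to make this plain, with the 10 bases of the 5′ end that hold the splice site pairing stretch in capitals. Rnu1a1 lies at chr11:87422867-87423030 on the plus strand, Gm22634 at chr12:54710308-54710471 and Gm26444 at chr12:54729602-54729765, and Rnu1b1, which differs in the body but not in these 10 bases, lies at chr3:96359953-96360117 on the minus strand.
Rnu1a1, Gm22634 and Gm26444: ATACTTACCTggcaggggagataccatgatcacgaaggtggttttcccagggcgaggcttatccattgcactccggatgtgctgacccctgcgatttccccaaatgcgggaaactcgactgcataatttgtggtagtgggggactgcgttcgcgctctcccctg
Rnu1b1: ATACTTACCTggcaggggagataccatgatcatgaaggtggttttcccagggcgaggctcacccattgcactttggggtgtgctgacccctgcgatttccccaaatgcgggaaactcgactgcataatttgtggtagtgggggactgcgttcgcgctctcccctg

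Other small RNAs of the same kind were lower too. Rnu5g, a U5 RNA that aligns exons in the spliceosome, fell from 35.9, 34.3 and 12 CPM in KO#1 to 1.2, 0.387 and 0.217 CPM in KO#2 (log2 fold change -5.54, SE 0.66, adjusted p = 2.16e-05). Rnu11, of the minor spliceosome, was read at 17.6, 14.3 and 5.29 CPM and 0.679, 0.929 and 0.521 CPM (log2 fold change -4.10, SE 0.55, adjusted p = 5.08e-05). In neither did the clones overlap. The 5.8S ribosomal RNA copy n-R5-8s1 showed 948, 705 and 139 CPM in KO#1 and 1.36, 2.28 and 4.26 CPM in KO#2 (log2 fold change -7.82, SE 1.04, adjusted p = 4.45e-05), in libraries from which the authors removed ribosomal sequences. By annotated type, 41 of 50 small nuclear RNA genes, 100 of 131 small nucleolar RNA genes and 13 of 15 small Cajal body RNA genes were lower in KO#2, beside 16.1% of all genes. Of small nucleolar RNA genes 5 were higher, and of the other 2 types none.

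In the list of abundant structural noncoding RNAs all 10 members differed, 8 lower and 2 higher, beside 16.1% lower and 19.3% higher among all genes. The median log2 fold change was -3.30. Under exon length offsets 7 were lower and 1 higher, with a median of -2.09. Rn7s1, the RNA of the signal recognition particle, was the most abundant of them, with 325841, 356457 and 153605 CPM in KO#1 and 9666, 17134 and 16482 CPM in KO#2 (log2 fold change -4.27, SE 0.56, adjusted p = 3.93e-05). These CPM carry the TMM factor, and of the raw counts it took 12.9% to 19.9% of all counts in KO#1 and 1.38% to 2.48% in KO#2. Rn7sk, which restrains the elongation factor P-TEFb, had 89305, 135052 and 50259 CPM and 5557, 11852 and 12104 CPM (log2 fold change -3.22, SE 0.54, adjusted p = 0.000274). Rpph1, the RNA of ribonuclease P, gave a log2 fold change of -3.38 (SE 0.51, adjusted p = 0.000113). Terc, the template of telomerase, gave -3.82 (SE 0.56, adjusted p = 9.97e-05), and the Ro-associated RNAs Rny1 and Rny3 gave -4.17 and -3.72. For all 6 the 3 KO#2 values lay under the 3 KO#1 values. The 2 members that were higher, Malat1 and Neat1, are long nuclear RNAs.

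Replication-dependent histone genes, whose mRNAs end in a stem-loop in place of a poly(A) tail, were lower in KO#2 as a group. Of 65 tested genes 56 were lower, 1 was higher and 8 did not pass the test, beside 16.1% lower among all genes, with a median log2 fold change of -2.62. Leaving out any 1 of the 6 libraries left 55 to 58 lower. Hist4h4, an H4 gene, had 580.1, 869 and 343 CPM in KO#1 and 31.5, 30.1 and 69.5 CPM in KO#2 (log2 fold change -3.77, SE 0.48, adjusted p = 3.63e-05). Hist1h3b, an H3 gene, had 1331, 1688 and 719.8 CPM and 102, 97.4 and 164 CPM (log2 fold change -3.36, SE 0.43, adjusted p = 3.6e-05), and wt cells lay with KO#1 at 860.3, 1505 and 720.1 CPM. Hist1h4n, a further H4 gene, had 3299, 4265 and 1944 CPM and 225, 265 and 450.3 CPM (log2 fold change -3.34, SE 0.52, adjusted p = 0.000148). In none of these did the clones overlap. Of the H2A genes, Hist1h2an gave a log2 fold change of -3.77 (SE 0.48), Hist1h2ap -3.65, Hist1h2ad -3.39 and Hist1h2ag -3.33, and the H3 gene Hist1h3i -3.38. The single member that was higher was Hist1h2bq (log2 fold change 2.29, SE 0.50, adjusted p = 0.00218), named after its value was seen. Many of these genes are near-identical copies, and their individual values depend on how the counting placed shared reads.

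The stem-loop that ends these mRNAs was searched in the annotated transcripts as a perfect hairpin of a 6-base stem and a 4-base loop. The 3 commonest forms are shown, since they are what sets these mRNAs apart from polyadenylated ones. They occurred in 24, 7 and 6 of the 65 genes, 37 in all, and in 0.187% of 21951 protein-coding genes. Of the 37 genes with such a hairpin 31 were lower in KO#2, and of the 28 without it in an annotated transcript 25 were lower.
Stem-loop in 24 genes: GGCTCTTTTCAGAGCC
Stem-loop in 7 genes: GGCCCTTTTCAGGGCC
Stem-loop in 6 genes: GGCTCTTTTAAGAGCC

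Most of the nuclear genes tested for the translation and respiration machinery were lower in KO#2. Of 80 cytosolic ribosomal protein genes 67 were lower, none was higher and 13 did not pass the test, beside 16.1% lower among all genes, with a median log2 fold change of -1.42. Rps27 had 2118, 2077 and 1358 CPM in KO#1 and 158, 252 and 331 CPM in KO#2 (log2 fold change -2.91, SE 0.40, adjusted p = 5.88e-05), and wt cells had 1375, 1644 and 1313 CPM. Rps16 gave a log2 fold change of -2.83 (SE 0.34, adjusted p = 2.33e-05), and Rplp1, an acidic stalk protein, gave -2.67 (SE 0.37, adjusted p = 6.43e-05). In these 3 genes every KO#2 library lay under every KO#1 library. Leaving out 1 library left 55 to 71 ribosomal protein genes lower. These genes have many processed pseudogenes that share their sequence, which can divert reads.

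Of 91 nuclear genes of the respiratory chain 72 were lower in KO#2 by edgeR and 19 did not pass the test, beside 16.1% lower among all genes, with a median log2 fold change of -1.26. Ndufa3, of complex I, had 131, 108 and 70.2 CPM in KO#1 and 10.8, 21.1 and 18.9 CPM in KO#2 (log2 fold change -2.60, SE 0.38, adjusted p = 9.16e-05). Cox6b1, of cytochrome c oxidase, had 383, 265 and 213 CPM and 37.6, 58.9 and 63.7 CPM (log2 fold change -2.43, SE 0.34, adjusted p = 6.62e-05). Uqcr11, of complex III, gave a log2 fold change of -2.39 (SE 0.38), and Cox7a1, a muscle-type subunit, -2.52 (SE 0.43). The clones did not overlap in any of these. With DESeq2, as with exon length offsets in edgeR, 1 of the 91 was higher. Leaving out 1 library left 52 to 69 of the 91 lower. Of the 13 protein genes of the mitochondrial genome 4 were lower and none higher, beside 16.1% lower and 35.4% differing among all genes, with a median of -1.17. mt-Nd1 had 2059, 2086 and 1008 CPM in KO#1 and 629, 430.1 and 522 CPM in KO#2 (log2 fold change -1.71, SE 0.41, adjusted p = 0.00417), and mt-Cytb 1129.6, 898 and 468 and 411, 237 and 224 CPM (log2 fold change -1.52, SE 0.41, adjusted p = 0.00861). The number of these genes that were lower was 2 without KO#1 replicate 1 or without KO#2 replicate 2, and 7 without KO#1 replicate 3.

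**Figure D2:**
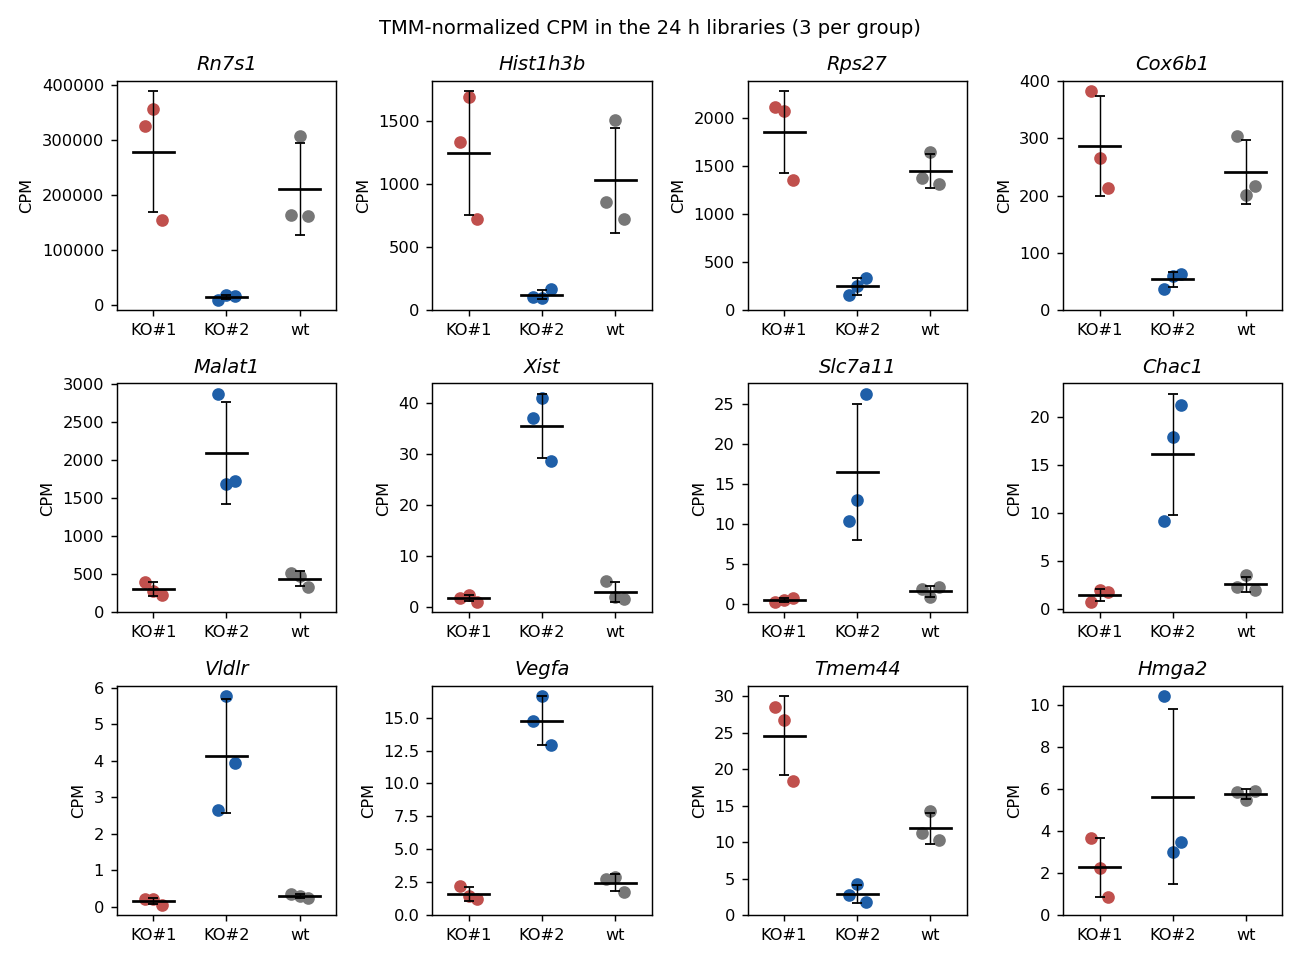
TMM-normalized CPM of 12 genes in each 24 h library of KO#1, KO#2 and wt cells, on linear axes. Points are libraries, horizontal bars are means and error bars are SD over 3 libraries. The KO#2 points stand apart from KO#1 in each panel but Hmga2, and wt points lie nearer KO#1 than KO#2 in the panels other than Tmem44 and Hmga2.

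The difference ran with the length of the RNA. Among 362 protein-coding genes with under 1 kb of exon the median log2 fold change was -1.30, and 56.6% were lower and 3.59% higher in KO#2. Among 3980 genes of 3 to 5 kb the median was -0.02. Among 2483 genes of over 8 kb it was 0.76, and 42.0% were higher and 2.05% lower. Across 14045 protein-coding genes the Spearman correlation of exon length with the log2 fold change was 0.482 at 24 h and 0.353 at 0 h, as a description across genes that share the same libraries. Without the ribosomal protein, respiratory chain and histone genes the median of the shortest class was -1.14. When offsets fitted to exon length in each library were added, after seeing the data, 5183 genes differed, and the share higher in KO#2 fell from 54.5% to 40.1% of those that differed. With these offsets 69 ribosomal protein genes, 73 respiratory chain genes and 56 histone genes were lower.

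**Figure D3:**
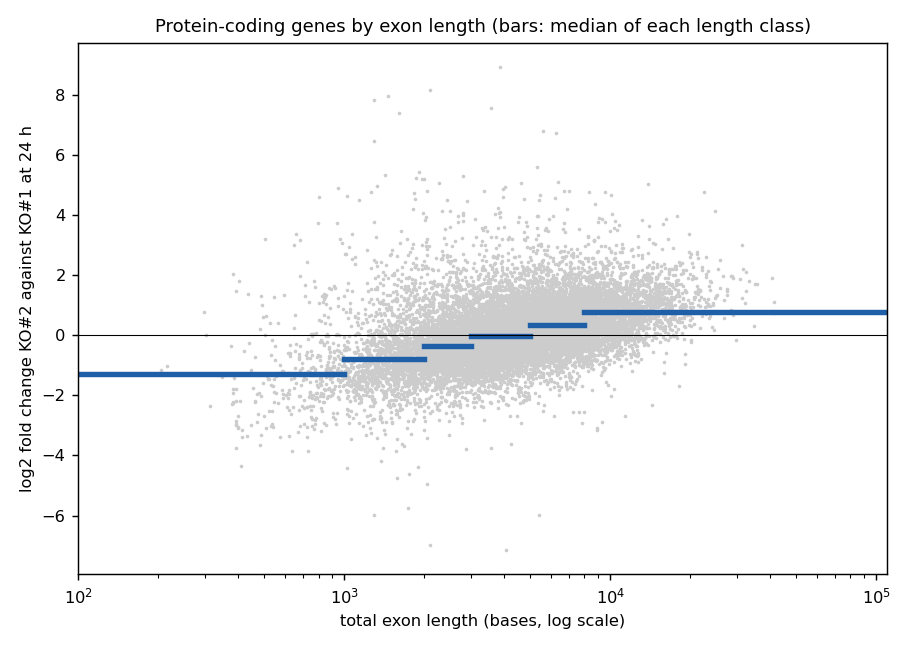
Log2 fold change of KO#2 against KO#1 at 24 h against total exon length (log axis, bases) for 14045 protein-coding genes, each a point. Bars are medians of 6 length classes and climb from -1.30 under 1 kb to 0.76 over 8 kb.

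In a list of 10 long noncoding RNAs, most of them nuclear, that was added after seeing the data, 9 were tested. Of these 6 were higher in KO#2, beside 19.3% higher among all genes, none was lower and 3 did not pass the test, with a median log2 fold change of 1.79. As the list was chosen with these values known, the count describes it and tests nothing. With exon length offsets 3 were higher and the median was 0.47. Malat1, a component of nuclear speckles, had 402, 278 and 227 CPM in KO#1 and 2869, 1682 and 1723 CPM in KO#2 (log2 fold change 2.79, SE 0.35, adjusted p = 3.61e-05), with wt cells at 519.96, 476 and 332 CPM. Neat1, the scaffold of paraspeckles, had 12.7, 11 and 8.84 and 46.2, 40.3 and 26.2 CPM (log2 fold change 1.79, SE 0.34, adjusted p = 0.00077). Kcnq1ot1, the imprinted antisense RNA of the Kcnq1 domain, had 38.7, 34.4 and 24.1 and 407, 244 and 152 CPM (log2 fold change 3.04, SE 0.42, adjusted p = 6.5e-05). The clones did not overlap in any of the 3. With exon length offsets the log2 fold change was 2.32 for Malat1, but 0.60 for Neat1 (adjusted p = 0.136) and 0.32 for Kcnq1ot1 (adjusted p = 0.327), whose annotated exon is 93092 bases long. Beside the same 19.3%, genes annotated as lying within introns on the same strand were higher in 50 of 74 cases, and genes of the class awaiting experimental support (TEC) in 285 of 443. Of 761 processed pseudogenes, which are short copies of mRNAs, 355 were higher and 19 lower.

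Xist, the long RNA that coats the inactive X chromosome, had 1.84, 2.45 and 1.12 CPM in KO#1 and 37, 40.9 and 28.7 CPM in KO#2 (log2 fold change 4.33, SE 0.50, adjusted p = 2.01e-05). Every KO#2 library lay above every KO#1 and every wt library (5.16, 2 and 1.67 CPM in wt cells). The difference was present at 0 h, with 10.3, 5.22 and 2.86 CPM in KO#1 and 85.3, 47.8 and 39.2 CPM in KO#2 (log2 fold change 3.25, adjusted p = 0.000306). Ddx3y, a Y-linked helicase gene, was low in both clones, at 0.735, 0.204 and 0.0622 CPM in KO#1 and 0.836, 1.16 and 1.69 CPM in KO#2 (log2 fold change 1.86, SE 0.70, adjusted p = 0.0457), with an adjusted p of 0.138 without KO#1 replicate 2, 0.183 without KO#1 replicate 3, 0.0735 without KO#2 replicate 2 and 0.126 without KO#2 replicate 3, and of 0.0935 with exon length offsets. Tsix overlaps Xist on the opposite strand, and the use of strand in the counting is not given in the sources used here.

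Of the 27 tested imprinted genes 10 were higher and 1 lower in KO#2, beside 35.4% of all genes that differed, with a median log2 fold change of 0.65. Besides Kcnq1ot1, Meg3, a maternally expressed RNA of the Dlk1 domain, had 15.1, 21.3 and 24.9 CPM in KO#1 and 127, 48.8 and 106 CPM in KO#2 (log2 fold change 2.20, SE 0.39, adjusted p = 0.000414). Zdbf2 had 37.1, 42.6 and 38.5 and 236, 122 and 72.5 CPM (log2 fold change 1.87, SE 0.41, adjusted p = 0.00202), and Peg3, a paternally expressed zinc finger gene, 248, 299.7 and 455 and 999, 762 and 939 CPM (log2 fold change 1.43, SE 0.30, adjusted p = 0.00142). Magel2, of the Prader-Willi region, was low in both, at 0.294, 0.307 and 0.56 and 3.14, 1.47 and 2 CPM (log2 fold change 2.44, SE 0.55, adjusted p = 0.00243). With exon length offsets 5 were higher and 3 lower, and the median was 0.02. Peg3 then gave 0.63 and did not pass the test (adjusted p = 0.0804).

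Genes of the amino acid response are switched on by the transcription factor Atf4 when amino acids run short or proteins misfold. In a list of 26 such genes added after seeing the data 11 were higher, none was lower and 15 did not pass the test, beside 19.3% higher among all genes, with a median log2 fold change of 0.77. Since the list was chosen with these values known, its count beside the share of all genes is no test. Slc7a11, the cystine importer, led all protein-coding genes that met the naming rule, with 0.22, 0.511 and 0.747 CPM in KO#1 and 10.3, 13 and 26.2 CPM in KO#2 (log2 fold change 5.02, SE 0.64, adjusted p = 3.63e-05). Vldlr, a lipoprotein receptor, was read with 1 to 3 counts in each KO#1 library (0.22, 0.204 and 0.0622 CPM) and at 2.67, 5.77 and 3.95 CPM in KO#2 (log2 fold change 4.68, SE 0.56, adjusted p = 2.21e-05). Chac1, which degrades glutathione, had 0.735, 1.94 and 1.74 CPM and 9.15, 18 and 21.3 CPM (log2 fold change 3.46, SE 0.43, adjusted p = 2.98e-05). In all 3 the lowest KO#2 library lay above the highest KO#1 library.

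Transporters and enzymes of the same list moved likewise. Slc1a4, a neutral amino acid transporter, had 3.9, 5.62 and 6.66 CPM in KO#1 and 20.01, 32.8 and 36.2 CPM in KO#2 (log2 fold change 2.46, SE 0.33, adjusted p = 4.63e-05). The glycine transporter Slc6a9 gave a log2 fold change of 2.79 (SE 0.55, adjusted p = 0.000983), the mitochondrial folate enzyme Aldh1l2 2.64 (SE 0.49, adjusted p = 0.000614) and the mitochondrial carboxykinase Pck2 2.24 (SE 0.45, adjusted p = 0.00102). Ddit3, the stress factor CHOP, had 1.84, 1.02 and 2.49 and 3.61, 5.73 and 11 CPM (log2 fold change 1.89, SE 0.43, adjusted p = 0.00278). Adm2 held at most 2 counts in a KO#1 library and 0.888, 1.08 and 1.43 CPM in KO#2 (adjusted p = 0.000567). Atf4 itself had 124, 128 and 159.7 CPM and 109.9, 232 and 250.3 CPM, which overlapped and did not pass the test (log2 fold change 0.52, SE 0.29, adjusted p = 0.163), with an adjusted p of 0.0329 without KO#2 replicate 1. Asns, asparagine synthetase, also a target, had 221, 297 and 290.3 and 125, 239 and 198 CPM (log2 fold change -0.52, SE 0.31, adjusted p = 0.194). Under exon length offsets 10 of the 26 were higher. Without KO#2 replicate 1 the number was 15, and without any other single library 10 or 11.

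Atf4 acts with C/EBP proteins through a composite element, and the letters TGATGNAA (TTNCATCA on the other strand) were searched on both strands of the RefSeq promoter windows of GRCm38.p6, from 250 bases before to 50 after the annotated start. Of 32851 windows 3.97% held it, and 4.51% of 27025 genes had it in at least 1 window. It was found in 5 of 10 list genes that were higher and had a window (Chac1, Slc7a11, Vldlr, Slc1a4 and Pck2), and in 3 of 12 that did not pass the test (Asns, Trib3 and Nupr1). Stretches of 100 bases that hold the letters in capitals are shown for 4 of the 5 higher genes that hold them and, for contrast, for Asns, with positions given relative to the start. Chac1 (chr2:119351009-119351108, plus strand) has it from base -193, Slc7a11 (chr3:50443620-50443719, minus strand) from -66 and -47, Vldlr (chr19:27216780-27216879, plus strand) from -200, Pck2 (chr14:55540123-55540222, plus strand) from -103 and Asns (chr6:7693210-7693309, minus strand) from -23. The list was added after seeing the data and is made of genes of the Atf4 response. The shares with the element are therefore a description and no test, and a part of Atf4 in these differences was not tested. The match is to letters only and no binding was measured in these data.
Chac1: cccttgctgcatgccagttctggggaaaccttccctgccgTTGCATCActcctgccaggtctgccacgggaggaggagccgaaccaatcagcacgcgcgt
Slc7a11: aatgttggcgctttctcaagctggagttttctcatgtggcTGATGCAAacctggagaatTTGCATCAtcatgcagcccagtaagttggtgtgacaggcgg
Vldlr: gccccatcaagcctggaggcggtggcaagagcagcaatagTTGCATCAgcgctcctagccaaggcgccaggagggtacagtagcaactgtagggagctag
Pck2: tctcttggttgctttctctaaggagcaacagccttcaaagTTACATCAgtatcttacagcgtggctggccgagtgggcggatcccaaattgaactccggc
Asns: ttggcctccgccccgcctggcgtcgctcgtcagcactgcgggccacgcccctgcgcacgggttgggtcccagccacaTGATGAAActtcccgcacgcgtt

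Of 13 naive factors 1 was higher and 2 lower in KO#2, with a median log2 fold change of -0.05, whereas 35.4% of all genes tested differed. Without KO#2 replicate 3 the numbers were 3 higher and none lower, without KO#1 replicate 2 none higher and 1 lower, and without KO#2 replicate 1 no naive factor passed the edgeR test. Klf4 had 4.19, 3.07 and 5.41 CPM in KO#1 and 18.9, 14.9 and 4 CPM in KO#2 (log2 fold change 1.56, SE 0.45, adjusted p = 0.0116), with overlapping groups and an adjusted p of 0.0544 without KO#1 replicate 2 and 0.071 without KO#2 replicate 1. Zfp42, also called Rex1, had 192, 153 and 106 and 64.2, 105 and 75.1 CPM (log2 fold change -0.88, SE 0.27, adjusted p = 0.0155), and its adjusted p was 0.0734 without KO#1 replicate 1, 0.0792 without KO#2 replicate 1 and 0.0528 without KO#2 replicate 3. Tcl1 had 12.5, 15.4 and 16.9 and 7.58, 10.5 and 5.73 CPM (log2 fold change -0.91, SE 0.33, adjusted p = 0.0399), with an adjusted p of 0.0866 without KO#1 replicate 2, 0.104 without KO#1 replicate 3, 0.104 without KO#2 replicate 1 and 0.145 without KO#2 replicate 3. By library sizes alone the signs of Zfp42 and Tcl1 turned. Nanog was at 113, 56.5 and 36.8 CPM and 60.8, 106 and 24.6 CPM and Esrrb at 72.8, 74.6 and 101 and 105, 110.1 and 39.1 CPM, with overlapping groups in both.

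Of 10 formative and primed genes 4 were higher in KO#2 and none lower, beside 19.3% higher and 35.4% differing among all genes, with a median log2 fold change of 0.72. Without KO#2 replicate 1, however, none of the 10 passed the test. The number was 1 without KO#1 replicate 1 or 2 and 2 without KO#2 replicate 3, and 1 with exon length offsets. Lef1, a Wnt effector of the early epiblast, had 6.47, 15.4 and 27.2 CPM in KO#1 and 116, 24.1 and 48.6 CPM in KO#2 (log2 fold change 1.94, SE 0.59, adjusted p = 0.016), and its adjusted p was 0.07 without KO#1 replicate 1, 0.0552 without KO#1 replicate 2 and 0.139 without KO#2 replicate 1, and 0.0588 with exon length offsets. Zic5 had 10.7, 11.8 and 13.9 and 43.6, 15.8 and 24.1 CPM (log2 fold change 1.20, SE 0.32, adjusted p = 0.00836), with an adjusted p of 0.0852 without KO#2 replicate 1. Cdh2, N-cadherin, gave a log2 fold change of 1.06 (adjusted p = 0.0356), with an adjusted p of 0.147 without KO#1 replicate 1, 0.138 without KO#1 replicate 2, 0.101 without KO#2 replicate 1 and 0.0615 without KO#2 replicate 3, and of 0.225 with exon length offsets. Dnmt3a, a de novo methyltransferase, had 154, 189.6 and 199.97 and 395, 164 and 465 CPM (log2 fold change 0.91, SE 0.32, adjusted p = 0.0322), with an adjusted p of 0.116 without KO#1 replicate 1, 0.0792 without KO#1 replicate 2, 0.0592 without KO#1 replicate 3, 0.101 without KO#2 replicate 1 and 0.156 without KO#2 replicate 3. With exon length offsets its log2 fold change was -0.05. Fgf5 (3.16, 7.15 and 14.4 against 13, 6.27 and 16.1 CPM) and Otx2 (55.7, 73.9 and 96.4 against 64.3, 35.3 and 55.1 CPM) overlapped between the clones. Of 10 core factors 3 were higher, or 2 with exon length offsets, near the 19.3% of all genes, among them Zfp281 (log2 fold change 1.32, SE 0.19, adjusted p = 9.43e-05) and Rif1 (log2 fold change 1.28, SE 0.26, adjusted p = 0.00109, and adjusted p = 0.0677 with the offsets), whereas Pou5f1, at 1073, 1083 and 1528 CPM in KO#1 and 756, 878 and 864 CPM in KO#2, did not overlap but did not pass the edgeR test (adjusted p = 0.0859), and was lower in KO#2 with DESeq2 (adjusted p = 0.0305).

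In the signalling pathways of the transition the counts of differing genes are to be read against 35.4% of all genes tested. Of 15 genes of the FGF and ERK pathway 3 were higher and 1 lower, with 1 higher without KO#1 replicate 1. Spred1, a feedback inhibitor, had 24.6, 26.8 and 23.5 CPM in KO#1 and 90.8, 65.7 and 74.9 CPM in KO#2 (log2 fold change 1.63, SE 0.27, adjusted p = 0.000235). Etv4, a transcription factor downstream of ERK, was lower at 68.8, 64.8 and 51.3 against 122, 143 and 175 CPM (log2 fold change -1.25, SE 0.35, adjusted p = 0.0101). Egr1, an immediate early gene, was read at 0.882, 1.53 and 1.18 CPM in KO#1 and 45.6, 1.66 and 1.17 CPM in KO#2 (log2 fold change 3.76, SE 1.28, adjusted p = 0.0295). Its difference rested on the first KO#2 library, and the adjusted p was 0.0877 without KO#1 replicate 1, 0.0696 without KO#1 replicate 2, 0.0826 without KO#1 replicate 3 and 0.877 without KO#2 replicate 1. Of 13 genes of the Nodal and Activin pathway Skil, a negative regulator of Smad proteins, was higher at 226, 161 and 301 against 49.5, 52.7 and 70.7 CPM (log2 fold change 1.99, SE 0.24, adjusted p = 2.16e-05), as was the receptor Acvr2a (log2 fold change 1.12, SE 0.26, adjusted p = 0.00285).

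The counts of the chromatin lists, too, stand beside 19.3% higher and 16.1% lower among all genes. Of 9 genes of DNA methylation 4 were higher in KO#2 and none lower, and 2 were higher without KO#1 replicate 1, KO#1 replicate 2 or KO#2 replicate 1. Exon length offsets left 1 higher and 1 lower. Tet1, which oxidises methylated cytosine, had 100.02, 90.6 and 91.2 CPM in KO#1 and 766, 343 and 290.3 CPM in KO#2 (log2 fold change 2.31, SE 0.40, adjusted p = 0.000335), and Tet2 161, 151 and 111 and 523, 383 and 218 CPM (log2 fold change 1.41, SE 0.32, adjusted p = 0.00284). Neither overlapped between the clones. Under these exon length offsets Tet1 gave 1.30 and Tet2 0.35 (adjusted p = 0.344). In PRC2, which places H3K27me3, 3 of 11 genes were higher and none lower, beside 19.3% higher and 35.4% differing among all genes. Under exon length offsets 1 PRC2 gene was higher and 1 lower. Suz12, a core subunit, had 106, 95.2 and 101 and 358, 278 and 255 CPM (log2 fold change 1.56, SE 0.21, adjusted p = 5.92e-05), and remained higher with exon length offsets (1.29, adjusted p = 0.000109). The accessory subunits Aebp2 (log2 fold change 1.16, SE 0.24, adjusted p = 0.00143) and Jarid2 (log2 fold change 1.08, SE 0.27, adjusted p = 0.005) did not pass the test with those offsets (adjusted p = 0.108 and 0.152). The catalytic subunit Ezh2 had 65.3, 79.9 and 78.9 and 114, 72.6 and 96.4 CPM, and overlapped. Of 11 genes of HP1 and H3K9 methylation 3 were higher and none lower, or 1 higher under exon length offsets, beside the same 19.3% and 35.4%. Cbx5, which encodes HP1 alpha, was higher at 468, 461 and 607 against 206, 187 and 156 CPM (log2 fold change 1.49, SE 0.26, adjusted p = 0.000347), and the X-linked remodeller Atrx gave 1.45 (adjusted p = 0.000148), or 0.28 with exon length offsets.

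Of 13 genes of the lamina and nuclear envelope 3 were higher and 2 lower, about the 35.4% that differed among all genes, and with exon length offsets 1 was higher and 2 lower. Without KO#1 replicate 2 only 1 was higher, and without KO#1 replicate 3 or KO#2 replicate 3 only 1 was lower. Lmna, which encodes lamins A and C, had 98.8, 112 and 182 CPM in KO#1 and 58.2, 39.8 and 35.8 CPM in KO#2 (log2 fold change -1.55, SE 0.46, adjusted p = 0.0139). The groups did not overlap, and wt cells had 27.9, 35.8 and 45.6 CPM, nearer KO#2. The adjusted p of Lmna was 0.0571 without KO#1 replicate 3 and 0.0519 without KO#2 replicate 3. Banf1, which tethers DNA to the envelope, had 218, 169 and 184 and 56.2, 64.5 and 89.3 CPM (log2 fold change -1.44, SE 0.27, adjusted p = 0.000562). Lemd3, an inner membrane protein, was higher at 23.5, 19.9 and 19.7 against 10.4, 10.2 and 11.9 CPM (log2 fold change 0.95, SE 0.22, adjusted p = 0.00263). Lmnb1, at 165, 173 and 279 and 339.9, 177 and 194 CPM, overlapped. Of 18 germline genes controlled by DNA methylation 5 were higher and none lower, beside 19.3% higher and 35.4% differing among all genes. Among the higher ones were the X-linked Taf7l (log2 fold change 2.17, SE 0.45, adjusted p = 0.00134) and Mael, of the piRNA pathway, at 6.83, 8.59 and 5.6 CPM and 23.3, 21.7 and 20.5 CPM (log2 fold change 1.64, SE 0.43, adjusted p = 0.00676). The number of germline genes that were higher was 2 without KO#1 replicate 3 and 3 without KO#2 replicate 1.

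Some markers of other cell types were higher in KO#2. Of 12 feeder fibroblast markers 5 were higher and none lower, beside 19.3% higher and 35.4% differing among all genes, with a median log2 fold change of 1.54. Col3a1, a fibrillar collagen, had 7.28, 4.4 and 8.28 CPM in KO#1 and 53.3, 20.7 and 37.7 CPM in KO#2 (log2 fold change 2.47, SE 0.56, adjusted p = 0.00264). Lox, which crosslinks collagen, had 5.14, 5.52 and 4.42 and 18.3, 12.7 and 13.4 CPM (log2 fold change 1.56, SE 0.39, adjusted p = 0.00511), and Dcn, decorin, 2.79, 0.715 and 0.498 and 9.67, 4.57 and 7.3 CPM (log2 fold change 2.41, SE 0.56, adjusted p = 0.00363). The summed level of the 12 markers was 49.7 to 63.4 CPM in KO#1, 91.4 to 274 CPM in KO#2 and 24.8 to 42.2 CPM in wt cells. The highest sum belonged to KO#2 replicate 1, which also had the highest Hmga2, Lef1 and Egr1 values of the KO libraries. Without it the list median was 1.12 and 4 markers were higher. Without KO#1 replicate 2 the number was 3. Col6a2, of collagen VI, is among the 12 highest protein-coding genes by the naming rule, with 2 or 3 counts in each KO#1 library and 9.72, 2.24 and 3.17 CPM in KO#2 (log2 fold change 4.76, SE 1.05, adjusted p = 0.00225). Whether more fibroblasts or more RNA per cell lay behind these values cannot be told apart in bulk RNA, and the part of such cells in the other differences was not tested.

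Of 11 primitive endoderm markers 5 were higher and none lower, beside the same 19.3% higher and 35.4% differing among all genes, with a median log2 fold change of 1.35. Their summed level was 76.9 to 137 CPM in KO#1 and 298 to 381 CPM in KO#2. Most of that sum was Lrp2, the receptor megalin, at 64.6, 95.1 and 126 CPM in KO#1 and 340.5, 266 and 351 CPM in KO#2 (log2 fold change 1.75, SE 0.27, adjusted p = 0.000125). Lama1, a laminin chain, had 4.34, 4.91 and 5.6 and 20.7, 20.5 and 8.78 CPM (log2 fold change 1.75, SE 0.42, adjusted p = 0.00377), and Cubn, cubilin, 0.735, 0.409 and 0.56 and 2.61, 1.66 and 4.78 CPM (log2 fold change 2.37, SE 0.52, adjusted p = 0.00218). After thinning all libraries to the smallest total Cubn gave 1.64 and did not pass the test (adjusted p = 0.0841). Of the transcription factors, Gata6 had 2.43, 1.23 and 0.622 and 10.3, 4.57 and 4.78 CPM (log2 fold change 2.20, SE 0.54, adjusted p = 0.00463), and Sox7 held at most 2 counts in a KO#1 library and 0.941, 0.89 and 0.434 CPM in KO#2 (adjusted p = 0.00847). The defining factors Gata4 (0.882, 0.204 and 0.622 against 1.1, 0.89 and 1.17 CPM) and Sox17 (0.955, 0.102 and 0.622 against 1.31, 1.01 and 2.17 CPM) were near or under 2 CPM in every library and did not pass the test, although Sox17 had an adjusted p of 0.0484 without KO#1 replicate 1. Of 7 trophoblast markers none passed the edgeR test, 1 had an unadjusted p under 0.05 and 1 was lower with DESeq2. Without KO#2 replicate 1 a trophoblast marker was lower, and without KO#2 replicate 3 one was higher. Of 7 neural markers Ncam1, a neural adhesion molecule, was the one that was higher (log2 fold change 1.73, SE 0.34, adjusted p = 0.000925).

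In further lists, too, counts are to be read against the 19.3% of all genes that were higher and the 16.1% that were lower. Of 17 p53 targets 4 were lower and 2 higher. Bax, a mediator of apoptosis, was lower at 61.9, 89.5 and 95.7 against 381, 332 and 291 CPM (log2 fold change -2.02, SE 0.23, adjusted p = 2.01e-05), and the X-linked receptor Eda2r was higher (log2 fold change 1.35, SE 0.35, adjusted p = 0.00659). Without KO#2 replicate 3 only 2 p53 targets were lower, and without KO#1 replicate 2, KO#2 replicate 1 or KO#2 replicate 2 only 1 was higher. Of 14 G1 regulators both differing genes were CDK inhibitors, Cdkn2a at 28.9, 19.9 and 21 CPM in KO#1 and 5.59, 5.38 and 6.65 CPM in KO#2 (log2 fold change -1.99, SE 0.28, adjusted p = 8.32e-05) and Cdkn2d (log2 fold change -1.80, SE 0.31, adjusted p = 0.000293), and 4 of the list were lower without KO#1 replicate 1. Of 17 glycolysis genes 4 were lower, among them Pfkm (log2 fold change -1.19, SE 0.21, adjusted p = 0.000416), and 2 were higher. None of the glycolysis genes was higher without KO#1 replicate 1, KO#1 replicate 2 or KO#2 replicate 1 and 1 was without KO#2 replicate 2, and 2 were lower without KO#1 replicate 3 and 1 without KO#2 replicate 2. Of 18 cholesterol synthesis genes 4 were lower and 2 higher, among them Hsd17b7 (log2 fold change 1.31, SE 0.34, adjusted p = 0.00728). Only 1 of them was higher without any one KO#1 library or without KO#2 replicate 3, and 2 were lower without KO#2 replicate 2. Of 13 epithelial and mesenchymal genes 2 claudins were lower and 3 genes higher, among them Zeb1, a repressor of epithelial genes, at 10.1, 11.9 and 10.7 and 28.8, 24.2 and 26.2 CPM (log2 fold change 1.28, SE 0.23, adjusted p = 0.000418). With exon length offsets 1 gene of this list was higher and 2 were lower. Of 11 immediate early genes 3 were higher and 1 lower, among them Jun (log2 fold change 1.87, SE 0.47, adjusted p = 0.00528), and 1 was higher without any one KO#1 library. Of 30 zinc finger genes of the Zfp900 series 5 were higher at 24 h (median log2 fold change 0.63) and 18 at 0 h (1.39), where 15.1% of all genes were higher, but none passed the interaction test by edgeR or DESeq2 and 4 had an unadjusted p under 0.05 in it, so the times were not shown to differ. At 24 h the number was 8, 2 and 1 without KO#1 replicates 1, 2 and 3, and 2 and 3 without KO#2 replicates 1 and 3. The 24 h median was 1.04 without KO#1 replicate 1 and 0.33 without KO#1 replicate 3. Of 11 genes of the two-cell state 8 were higher in KO#2 at 0 h, again beside 15.1%, and none at 24 h by edgeR or DESeq2, when 1 had an unadjusted p under 0.05 and 1 was higher without KO#1 replicate 1 or without KO#2 replicate 1. All 11 had positive log2 fold changes at 24 h, with a median of 0.96 against 2.58 at 0 h, and in the interaction test none passed by edgeR, 2 by DESeq2 and 4 at an unadjusted p under 0.05. Without 1 library the 24 h median of this list ranged from 0.41 (without KO#1 replicate 3) to 1.27 (without KO#1 replicate 2).

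Among the genes with the largest differences by the naming rule, Fam25c had 155, 94 and 94.5 CPM in KO#1 and 4.91, 6.11 and 5.95 CPM in KO#2 (log2 fold change -4.34, SE 0.39, adjusted p = 4.66e-06), and 2200002D01Rik had 42.6, 32.6 and 36.6 and 2.61, 3.68 and 1.39 CPM (log2 fold change -3.86, SE 0.38, adjusted p = 1.14e-05). Fyb, an adaptor of blood cells, was read with 46 to 286 counts in the KO#1 libraries and with 11 or fewer in KO#2 (log2 fold change -5.97, SE 1.55, adjusted p = 0.00665), and wt cells had it in 1 of 3 libraries. Dpep2, a dipeptidase, gave -3.61 (adjusted p = 2.98e-05). On the other side, Hrk, a pro-apoptotic BH3-only gene, had 0.294, 0.204 and 0.187 CPM and 1.41, 4.14 and 2.48 CPM (log2 fold change 3.51, SE 0.54, adjusted p = 0.000126). Ubap1l gave 3.25 (adjusted p = 0.00101), Lrrc15 an adjusted p of 0.00461 with at most 3 counts in a KO#1 library, and Pcdhga8, whose exons are shared within the protocadherin cluster, 3.20 (adjusted p = 0.000937). Usp26, an X-linked deubiquitinase, had 0.735, 1.53 and 1.18 and 10.2, 11.8 and 9.64 CPM (log2 fold change 3.21, SE 0.44, adjusted p = 5.99e-05), with wt cells at 18.2, 13.4 and 11.7 CPM, like KO#2.

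Of further genes with large differences some lost the call when a library was left out. Adnp had 32.2, 3.33 and 2.74 CPM in KO#2 against 1.18, 1.53 and 1.06 CPM in KO#1 (log2 fold change 3.35, SE 0.94, adjusted p = 0.0103), and its adjusted p was 0.219 without KO#2 replicate 1. The call of 2210418O10Rik (log2 fold change 4.61, SE 1.41, adjusted p = 0.0169), with 3.6, 0 and 0 CPM in KO#1, had an adjusted p of 0.0626 without KO#1 replicate 2 and 0.0576 without KO#1 replicate 3, with log2 fold changes of 4.08 and 3.95. Gm10800 (log2 fold change 3.37, SE 1.29, adjusted p = 0.0489) had an adjusted p of 0.14 without KO#1 replicate 2, 0.146 without KO#1 replicate 3, 0.0554 without KO#2 replicate 1, 0.14 without KO#2 replicate 2 and 0.0561 without KO#2 replicate 3, with log2 fold changes of 2.68 to 3.67. Of longer noncoding genes, Gm26825 was nearly silent in KO#1 and wt cells and present in KO#2 at both times, with 0.441, 0.818 and 0.809 CPM in KO#1, 0.704, 0.601 and 0.494 CPM in wt cells and 45.5, 52.3 and 56.3 CPM in KO#2 at 24 h (log2 fold change 6.21, SE 0.45, adjusted p = 5.82e-07), and a log2 fold change of 5.26 at 0 h (adjusted p = 1.81e-05). The pseudogenes Gm7336 (15.6, 13 and 20.8 CPM in KO#2) and Gm6311 (2.72, 8.01 and 7.95 CPM) had no count in 2 of the 3 KO#1 libraries.

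The clones already differed before induction. At 0 h 4393 genes differed (26.4%), 2516 higher in KO#2 (15.1%) and 1877 lower (11.3%). Of the 24 h differences 2774 were also found at 0 h with the same sign, which is 47.2% of the 24 h and 63.1% of the 0 h differences, and 15 had the opposite sign. By direction, 5364 of the 5878 genes (91.3%) had the same sign at 0 h whether or not they passed there. The log2 fold changes of the 2 times, which share no library, had a Pearson correlation of 0.607 and a Spearman correlation of 0.652 across genes. Genes higher in KO#2 at 24 h had a median log2 fold change of 1.08 at 0 h, and genes lower at 24 h one of -0.80. Clustered histone genes had a median of -0.80 at 0 h with 21 of 65 lower, and ribosomal protein genes one of -0.61 with 21 of 80 lower.

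**Figure D4:**
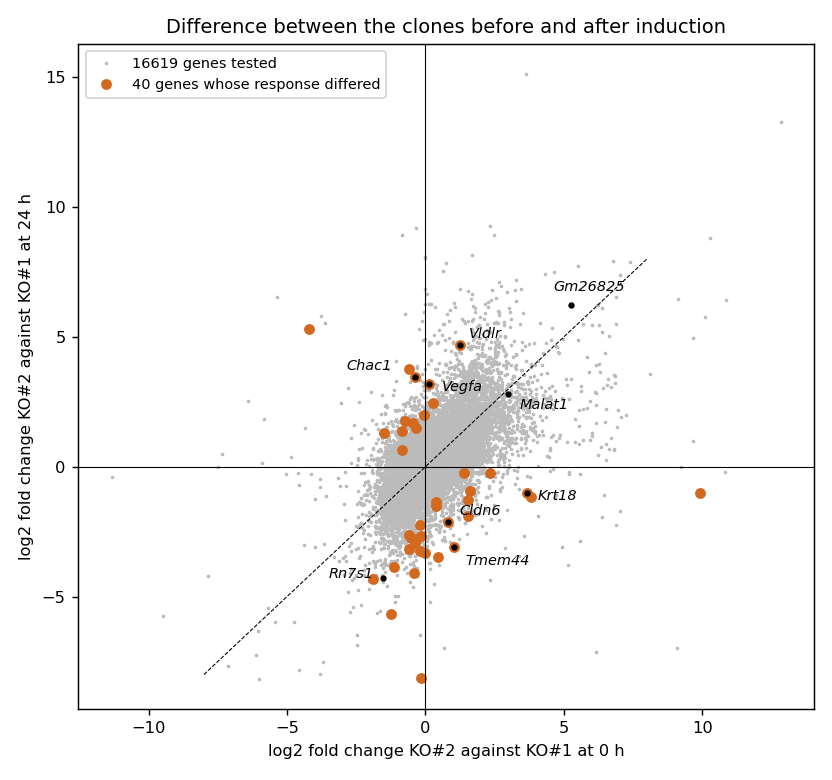
Log2 fold change of KO#2 against KO#1 at 0 h (x axis) and at 24 h (y axis) for 16619 tested genes. Larger points are the 40 genes whose 24 h response differed between the clones, and the dashed line marks equal differences at both times. Of the genes that differed at 24 h 91.3% lie in the quadrants of like sign, and Chac1, Vegfa, Tmem44 and Krt18 lie away from the line.

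The change from 0 h to 24 h itself differed between the clones, by the interaction of clone and time, in 40 genes (0.241%), 13 with a higher (0.0782%) and 27 with a lower response in KO#2 (0.162%), and 2459 genes had an unadjusted p under 0.05. The number was 452 with DESeq2, and without 1 library it ranged from 5 (without KO#1 replicate 1 or 2 of 24 h, or KO#2 replicate 2 of 0 h) to 120 (without KO#1 replicate 3 of 24 h). Of the 40, 25 differed between the clones at 24 h and not at 0 h. Tmem44 (ENSMUSG00000022537, chr16:30511855-30550842 in GRCm38), a membrane protein gene, had 4.95, 5.43 and 3.62 CPM in KO#1 and 7.92, 11.6 and 8.73 CPM in KO#2 at 0 h, and 28.6, 26.8 and 18.4 and 2.72, 4.18 and 1.74 CPM at 24 h (interaction -4.12, SE 0.46, adjusted p = 0.000594). It was thus higher in KO#2 before induction and lower after it. Chac1 had 39.5, 53.9 and 34.2 and 36.5, 32.8 and 28.6 CPM at 0 h against 0.735, 1.94 and 1.74 and 9.15, 18 and 21.3 CPM at 24 h (interaction 3.84, SE 0.56, adjusted p = 0.0106). Vegfa, an angiogenic growth factor (chr17:46016993-46032369), had 89.5, 62.4 and 69.2 and 109.9, 76.9 and 53.9 CPM at 0 h and 2.2, 1.43 and 1.18 and 14.7, 16.6 and 12.9 CPM at 24 h (interaction 3.07, SE 0.46, adjusted p = 0.0106). In both genes the clones overlapped at 0 h and every 24 h library lay under every 0 h library of the same clone, with a level at 24 h that was higher in KO#2. The interaction of these 3 genes passed the test without any 1 of the 12 libraries, but that of Vegfa did not after thinning to the smallest total (2.79, adjusted p = 0.071).

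For other genes the call of a difference in response was lost without single libraries. The interaction was 3.43, SE 0.69, adjusted p = 0.0458 for Vldlr, 4.38, SE 0.84, adjusted p = 0.0407 for Adm2, 2.19, SE 0.44, adjusted p = 0.0458 for Slc1a4 and 2.22, SE 0.45, adjusted p = 0.0458 for Scd2, a fatty acid desaturase. In the other direction it was -4.66, SE 0.90, adjusted p = 0.0407 for Krt18, a keratin of simple epithelia, -3.41, SE 0.59, adjusted p = 0.0318 for Anxa3, -3.29, SE 0.64, adjusted p = 0.0407 for Ly6a, which encodes Sca-1, and -2.97, SE 0.56, adjusted p = 0.0407 for Cldn6, a claudin of early epithelia. Each of these 8 lost the call without at least 7 of the 12 libraries in turn, while the differences kept their sign. Where the call was lost, that of Adm2 ranged from 4.00 to 5.24, that of Krt18 from -5.01 to -3.87 and that of Cldn6 from -3.16 to -2.497. Krt18 was read at 4.95, 2.09 and 3.04 CPM in KO#1 and 42.5, 79.2 and 7.1 CPM in KO#2 at 0 h, and at 25.1, 30.6 and 50.8 and 12.3, 30.03 and 10.5 CPM at 24 h, when the clones overlapped. Cldn6 was at 66.1, 48.9 and 87 CPM in KO#1 and 15.4, 20.05 and 10.3 CPM in KO#2 at 24 h, and Ly6a at 90.2, 38.7 and 42.4 and 5.7, 7.89 and 3.56 CPM, both without overlap. In wt cells Ly6a was at 1.41, 1.1 and 0.988 CPM.

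**Figure D5:**
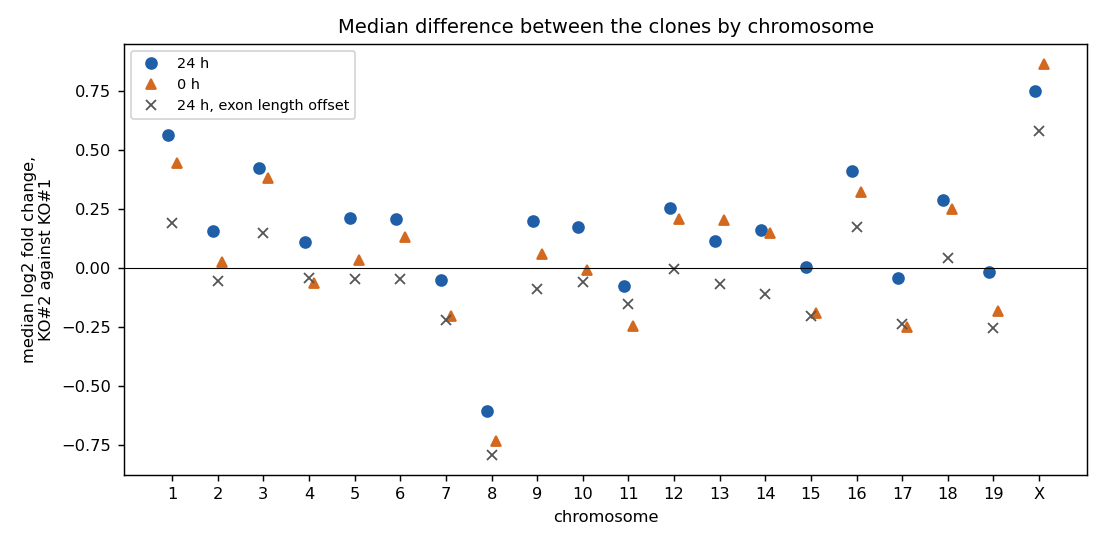
Median log2 fold change of KO#2 against KO#1 over the tested genes of each autosome and the X chromosome at 24 h, at 0 h and at 24 h with exon length offsets. Chromosome 8 is the lowest at both times (-0.60 and -0.73) and the X chromosome the highest (0.75 and 0.86).

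Chromosome 8 and the X chromosome stood apart from the other chromosomes plotted. On chromosome 8 the median log2 fold change of 818 tested genes was -0.60 at 24 h and -0.73 at 0 h, with 38.02% lower and 6.85% higher in KO#2 at 24 h, and -0.79 with exon length offsets. In single libraries, as median deviations from the mean of the 6 KO libraries on the log2 scale, it was 0.20, 0.22 and 0.48 in KO#1 and -0.26, -0.25 and -0.30 in KO#2. The wt libraries at 24 h had -0.23, -0.25 and -0.14, so that KO#1 stood apart from both other lines. Over all tested genes these deviations lay between -0.10 and 0.07. Mcm5, a subunit of the replicative helicase on chromosome 8, had 659, 812 and 997 CPM in KO#1 and 308, 297 and 399 CPM in KO#2 (log2 fold change -1.30, SE 0.25, adjusted p = 0.000838). It was chosen after seeing the data as a highly expressed gene of that chromosome.

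On the X chromosome the median of 639 tested genes was 0.75 at 24 h and 0.86 at 0 h, with 34.3% higher and 3.91% lower in KO#2, and 0.58 with exon length offsets. Median deviations were -0.26, -0.31 and -0.50 in KO#1, 0.09, 0.55 and 0.36 in KO#2, and 0.18, 0.02 and -0.16 in wt libraries. Usp9x, a deubiquitinase, had 402, 398 and 442 CPM in KO#1 and 1262, 1336 and 1289.8 CPM in KO#2 (log2 fold change 1.65, SE 0.27, adjusted p = 0.000206), and Huwe1, a ubiquitin ligase, 149.9, 164 and 226 and 737, 546 and 411 CPM (log2 fold change 1.65, SE 0.31, adjusted p = 0.000644), neither with overlap. Under exon length offsets Usp9x gave 0.76 (adjusted p = 0.0571) and Huwe1 0.35 (adjusted p = 0.277). The other autosomes had medians between -0.08 and 0.56 at 24 h. No DNA was measured in these libraries.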

How the data were processed

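RNA was measured by sequencing in 18 libraries of mouse cells, 3 in each of 6 groups. The authors deposited counts of reads per gene, whole numbers that are not normalized, for 45706 genes. Per the study's methods they made stranded libraries from total RNA, removed adapters and ribosomal sequences and aligned to GRCm38. The annotation release and the use of strand in counting are not given in the sources used here. Of the identifiers 45143 are in GENCODE M21, which gave types, positions and exon lengths.

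With edgeR 4.0.16 in R 4.3.3, 16619 genes remained after filterByExpr (minimum count 10). After TMM scaling, a single quasi-likelihood fit to the 18 libraries in 6 groups gave log2 fold changes (KO#2 minus KO#1), with Benjamini-Hochberg adjustment over all genes tested and a threshold of 0.05. The SE was taken as the absolute log2 fold change over the root of the F statistic. The interaction was (KO#2 24 h minus 0 h) minus (KO#1 24 h minus 0 h). P-values measure the spread between replicates of 1 clone each. In the 6 libraries 3 counts corresponded to 0.116 to 0.307 CPM, which covers counting error only. The steps were tested on simulated counts.

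Named genes were Hmga2 and Hmga1, the 12 highest and 12 lowest protein-coding and the 3 highest and 3 lowest noncoding genes whose log2 CPM averaged at least 2 and whose groups did not overlap, up to 6 differing members of each list, and the 5 highest and 5 lowest interactions. Some genes that met these rules are not reported here. The members and lists were chosen with earlier results of these data known. Alternatives were DESeq2 1.42.0, RLE factors, library sizes alone, no or a stricter filter, only the libraries compared, the replicate block, stricter thresholds, protein-coding genes only, thinning, and leaving out each library. Exon length offsets (natural spline, 5 degrees of freedom) were added after seeing the data. Python 3.11.15 and matplotlib 3.10.9 drew the figures.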

Additional observations from a re-analysis of the deposited data

Results flagged for a closer look

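The 24 h response differed between the clones by the interaction test, for which 40 genes passed. The genes among them that the text names had the following differences in log2 response, KO#2 minus KO#1. Higher responses were 9.48 for the pseudogene Gm6311, 4.38 for Adm2, 3.84 for Chac1, 3.43 for Vldlr, 3.07 for Vegfa, 2.22 for Scd2 and 2.19 for Slc1a4. Lower responses were -4.66 for Krt18, -4.12 for Tmem44, -3.68 for Rnu11, -3.41 for Anxa3, -3.29 for Ly6a, -2.97 for Cldn6, -2.72 for 2200002D01Rik and -2.46 for Fam25c. The call was lost without 9 of the 12 libraries in turn for Rnu11, 10 for Fam25c and 8 each for 2200002D01Rik and Gm6311. Gm6311 was read at 43.3, 111 and 0.642 CPM in KO#1 at 0 h, and its difference in response ranged from 8.25 without the second of these libraries to 13.8 without KO#1 replicate 1 of 24 h.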

How the results depend on the processing

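The 5878 differing genes at 24 h became 3402 at an adjusted p under 0.01 and 9986 by library sizes alone, of which 95.5% were higher in KO#2 against 54.5%. Leaving out 1 library gave 4359 to 5275. The 4393 genes at 0 h became 1914 at an adjusted p under 0.01 and 2900 with at least 10 counts in every library, and 2601 to 3613 without 1 library, the lowest without KO#2 replicate 1 of 0 h. With exon length offsets 1734 of 4766 genes at 0 h were higher.

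The 40 genes whose response differed became 452 with DESeq2, 783 without a filter on low counts, 222 by library sizes alone, 7 after thinning to the smallest total, 6 with only the libraries compared and 1 at an adjusted p under 0.01, and 5 to 120 without 1 library. The share of 24 h differences also found at 0 h, 47.2%, became 34.2% at an adjusted p under 0.01, 30.7% by library sizes alone and 36.4% with only the libraries compared.

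The main fit did not use the replicate numbers. Same-numbered deviations correlated at -0.22, -0.03 and -0.19 between the clones at 24 h and at 0.28, -0.07 and -0.16 at 0 h. Across wt and KO#1 at 24 h, which were not correlated, composition ran with the number. Small structural RNA took 30.9%, 46.2% and 28.5% in wt replicates 1 to 3 and 39.2%, 47.0% and 27.7% in KO#1, but 6.56%, 11.4% and 9.68% in KO#2. Mitochondrial shares fell from replicate 1 to 3 in all 3 lines. What the numbers mark was not tested. Between the times they correlated at -0.16, -0.01 and -0.21 in KO#1 and at 0.46, 0.33 and -0.00055 in KO#2. With the replicate block 6119 genes differed at 24 h (3306 higher), 4682 at 0 h and 103 in response. At 24 h the block moved Notum (adjusted p = 0.0587), Ddx3y (0.0678) and Egr1 (0.0905) over the threshold of 0.05 and brought Sox17 under it (0.0456).

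Signs turned by library sizes alone for Asns (0.55), Bst2 (0.0044), Krt18 (0.019), Nanog (1.07), Otx2 (0.48), Pou5f1 (0.47), Tcl1 (0.17) and Zfp42 (0.26) and for the medians of the G1 (0.59), epithelial and mesenchymal (0.65) and mitochondrial coding (0.038) lists. Exon length offsets turned Dnmt3a (-0.045, or -0.093 with the replicate block), Esrrb (-0.36, or -0.39), Ezh2 (-0.091, or -0.072) and Nanog (0.0092), and with the block the imprinted median (-0.021). The offsets also turned the medians of the lamina (-0.31), PRC2 (-0.091), cholesterol (-0.23), core (-0.0099), trophoblast (0.062), antigen presentation (0.063), Hox (-0.021) and primitive streak (-0.020) lists, which had lain between -0.033 and 0.19. With only the libraries compared Esrrb was -0.041. Without 1 library Esrrb ranged from -0.20 to 0.38, Lmnb1 from -0.15 to 0.45 and Nanog from -0.69 to 0.42. By library sizes alone Anxa3, B2m, Banf1, Cdkn2d, Etv4, Hmga1, Lmna, Mcm5, mt-Cytb, mt-Nd1, Notum and Pfkm lost the 24 h call. After thinning B2m, Cubn, Egr1, Gm10800, Gm6311, Lrrc15, Ncam1, Tcl1 and Znrf3 did, and of the named differences in response those of Chac1 and Tmem44 passed. Notum and Tcl1 lost it with at least 10 counts in every library and with protein-coding genes only, Cdh2, Ddx3y and Dnmt3a with only the libraries compared, Nlrc5 with DESeq2 and without a filter, and Gm10800 with RLE size factors, whereas Krt18 gained it without a filter (adjusted p = 0.00927). The cause was not tested. Depth limits genes with few counts, and P-values cover 1 clone on each side.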

Other observations

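Of 15 genes of antigen presentation 2 were lower and 1 higher in KO#2 at 24 h, a smaller share than the 35.4% of all genes that differed. B2m, the light chain of class I molecules, was read at 22.4, 18.7 and 9.33 CPM in KO#1 and 9.25, 5.49 and 6.91 CPM in KO#2 (log2 fold change -1.22, SE 0.37, adjusted p = 0.0161, and 0.0695 without KO#1 replicate 1 and 0.0694 without KO#2 replicate 2), and Bst2, an interferon-induced restriction factor, at 68.5, 62.5 and 87.1 and 31.8, 31.4 and 43.7 CPM (log2 fold change -1.03, SE 0.24, adjusted p = 0.00355). Nlrc5, a transactivator of class I genes, lay the other way at 0.294, 0.102 and 0.0622 and 0.993, 0.464 and 0.261 CPM (log2 fold change 1.83, SE 0.66, adjusted p = 0.0391), with an adjusted p of 0.121 without KO#1 replicate 2, 0.173 without KO#1 replicate 3, 0.215 without KO#2 replicate 1 and 0.0543 without KO#2 replicate 2, and of 0.0775 with DESeq2, 0.103 without the filter on low counts and 0.15 with exon length offsets.

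Of 13 genes of the Wnt pathway 2 were higher and 1 lower, under the share of 35.4% among all genes. With exon length offsets all 3 lost the call, with an adjusted p of 0.0588 for Lef1, 0.237 for Znrf3 and 0.0769 for Notum. Besides Lef1, Znrf3, a ligase that removes Wnt receptors, was higher (log2 fold change 0.96, SE 0.32, adjusted p = 0.0242, and 0.0709 without KO#1 replicate 1, 0.0813 without KO#1 replicate 2 and 0.169 without KO#2 replicate 1), and Notum, a secreted Wnt inactivator, was lower (log2 fold change -1.12, SE 0.41, adjusted p = 0.0399, and 0.235 without KO#1 replicate 3, 0.114 without KO#2 replicate 1 and 0.102 without KO#2 replicate 3). In a list of 10 matrix genes added after seeing the data 7 were higher and 1 lower (none lower without KO#1 replicate 3), beside 19.3% higher among all genes, with a median log2 fold change of 2.27. This list, too, was chosen with the values known, so its count is no test. Col6a1 had 1.47, 1.43 and 2.8 CPM in KO#1 and 17.7, 6.35 and 10.9 CPM in KO#2 (log2 fold change 2.59, SE 0.64, adjusted p = 0.00472), and Col6a3 3.97, 2.86 and 2.99 and 41.2, 9.6 and 19.2 CPM (log2 fold change 2.83, SE 0.67, adjusted p = 0.00351). The feeder fibroblast markers moved the same way, and their part in these values was not tested.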
